A study of Homo sapiens with 2 samples.

Results

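The genes described here are 10 components of the Notch pathway: the receptors NOTCH1, NOTCH2 and NOTCH3, the ligands JAG1, JAG2 and DLL1, the nuclear factors RBPJ and MAML2, and the target genes HES1 and HEY1. They were taken as named genes, and every probe set annotated to exactly 1 of them was used. This gave 28 probe sets out of 41091 that name a single gene, and 10 genes out of 19775. Their mRNA was measured in MDA-MB-231, an established human line from a triple-negative breast cancer, on 1 Affymetrix array for each of 2 stable derivatives. One derivative had been infected with a control virus carrying an empty vector and the other with a virus that overexpresses the microRNA miR-203. The labels do not say whether either line is a clone or a pool, or which promoter drives the microRNA. Both lines were grown in the same serum-supplemented medium.

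Notch signalling passes between touching cells. A ligand of the Jagged or Delta-like type on one cell binds a Notch receptor on its neighbour, the receptor is cut by an ADAM protease and then by gamma-secretase, and the freed intracellular domain enters the nucleus. There it joins the DNA-binding protein RBPJ and a Mastermind-like coactivator and switches on genes of the HES and HEY families, which encode transcriptional repressors. In breast cancer the pathway is studied for its part in growth, in stem-like cells and, through JAG1, in bone metastasis.

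The microRNA that separates the lines is shown first, because it is the only agent that differs between them by label. The labels say miR-203 without naming the arm. RefSeq lists the 3p strand of the gene MIR203A, on the plus strand of chr14:104117469-104117490 (GRCh38.p14), as follows, with the seed (bases 2 to 8) in capitals.
hsa-miR-203a-3p: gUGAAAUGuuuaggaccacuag
No probe set of the array was annotated to this gene (0 of 54675), so the size of the overexpression was not measured.

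Promoters of a target gene and of the DNA-binding factor are shown because they were the ones that held the letters of the factor's core site. HES1 is the classical direct target of the RBPJ complex. TGGGAA, the core of the RBPJ binding site, was searched on both strands (TTCCCA on the other) in the 250 bases before each annotated gene start in RefSeq (GRCh38.p14), and the motif does not overlap its own reverse complement. It was found at least once in 20.8% of 35116 windows and at least 2 times in 2.9%. Of the Notch genes, 8 were searched, with 12 windows in all because RBPJ has several starts; DLL1 and HEY1 were not searched, so that HES1 was the only target gene among them. HES1 held 2 matches, both on the strand of the gene, at 84 to 79 and at 70 to 65 bases before the start. RBPJ held 2 matches in 1 of its 5 windows, at 115 to 110 bases before the start on the opposite strand and at 72 to 67 bases on its own. The other 10 windows, of NOTCH1, NOTCH2, NOTCH3, JAG1, JAG2, MAML2 and RBPJ itself, held none (0 of 10). A match here is a run of letters and not a measured binding site. Capitals mark the matches in the windows chr3:194135898-194136147 and chr4:26319496-26319745, both on the plus strand.
HES1: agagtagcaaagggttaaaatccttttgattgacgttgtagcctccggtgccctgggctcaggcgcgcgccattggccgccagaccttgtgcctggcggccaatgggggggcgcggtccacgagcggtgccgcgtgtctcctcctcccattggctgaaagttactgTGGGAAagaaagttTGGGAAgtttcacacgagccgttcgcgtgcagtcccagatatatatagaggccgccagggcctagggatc
RBPJ: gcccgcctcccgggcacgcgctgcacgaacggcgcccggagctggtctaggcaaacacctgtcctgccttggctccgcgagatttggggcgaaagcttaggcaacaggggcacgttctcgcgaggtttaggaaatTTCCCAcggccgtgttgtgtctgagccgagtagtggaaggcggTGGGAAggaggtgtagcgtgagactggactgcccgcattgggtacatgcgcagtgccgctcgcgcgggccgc

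Values are given per probe set as log2 expression, and every difference is the miR-203 array minus the empty-vector array on that scale. A gene's value is that of its probe set with the highest mean over both arrays. Genes with both values under 5.37, the median level of all probe sets, were left out, which kept 13311 genes and all 10 Notch genes. With 1 array per line there was no replicate error, no test could be made, and a difference also holds whatever separated the 2 cultures and hybridisations. For scale, each gene is set beside the middle 95% of differences among the 500 genes closest to it in mean level. This range leaves out 5% of those genes by construction. The range given for a gene is taken at the level of its brightest probe set, also where its dimmer probe sets are compared. The arrays had medians of 5.38 and 5.38 and correlated with r = 0.996 over all probe sets.

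The 6 genes used as marks of MDA-MB-231 were high on both arrays. VIM, CD44, EGFR, CAV1, ZEB1 and AXL lay between 9.35 and 13.90 on both arrays, with differences from -0.060 to 0.16. CDH1 (4.15 and 3.99) and PGR (3.67 on both) lay under the filter level. EPCAM (8.35 and 8.25), ERBB2 (8.58 and 8.48), ESR1 (6.27 and 6.30) and ERBB3 (6.30 and 6.66) passed it. Of the markers of other cell types, 3 of 5 endothelial, 2 of 4 blood cell and 3 of 5 fibroblast genes passed, none above 7.86 on either array. Their summed log2 levels were 26.98 and 26.82, 21.19 and 21.24, and 27.50 and 27.57 in the empty-vector and miR-203 lines. Single markers differed more than these sums. KDR had a difference of -0.75, further from 0 than any Notch gene, LUM -0.37, PDGFRB 0.35 and PTPRC 0.34. LUM and PTPRC were under the filter level on both arrays. KDR read 5.51 and 4.76, so it passed only by the empty-vector array. The part of other cells in the Notch values was not tested. In such bulk RNA, fewer cells that express a gene and less of its mRNA per cell cannot be told apart.

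Among the 10 Notch genes, JAG1 had the highest difference and HEY1 the lowest. None of the Notch genes was 1.5-fold higher (0 of 10) or 1.5-fold lower (0 of 10) in the miR-203 line, where 0.721% of all genes were that much higher, 1.08% that much lower and 1.8% either. At 2-fold the counts were again 0 and 0, against 0.105% and 0.27% of all genes, or 0.376% either way. With shares this small, counts of 0 among 10 genes are near the background and say little about the pathway. The median of the 10 differences was -0.062, beside 0.013 over all genes (interquartile range -0.11 to 0.15). There were 5 genes above 0 (NOTCH2, JAG1, DLL1, RBPJ and HES1) and 5 below (NOTCH1, NOTCH3, JAG2, MAML2 and HEY1), beside 52.1% and 45.8% of all genes. The differences ran from -0.50 for HEY1 to 0.39 for JAG1. By the brightest probe set of each gene, these were the genes that lay outside the range of genes of like level, 2 of 10. That range leaves out 5% of genes by construction. Receptors, ligands, nuclear factors and targets each held genes on both sides of 0.

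**Figure D1:**
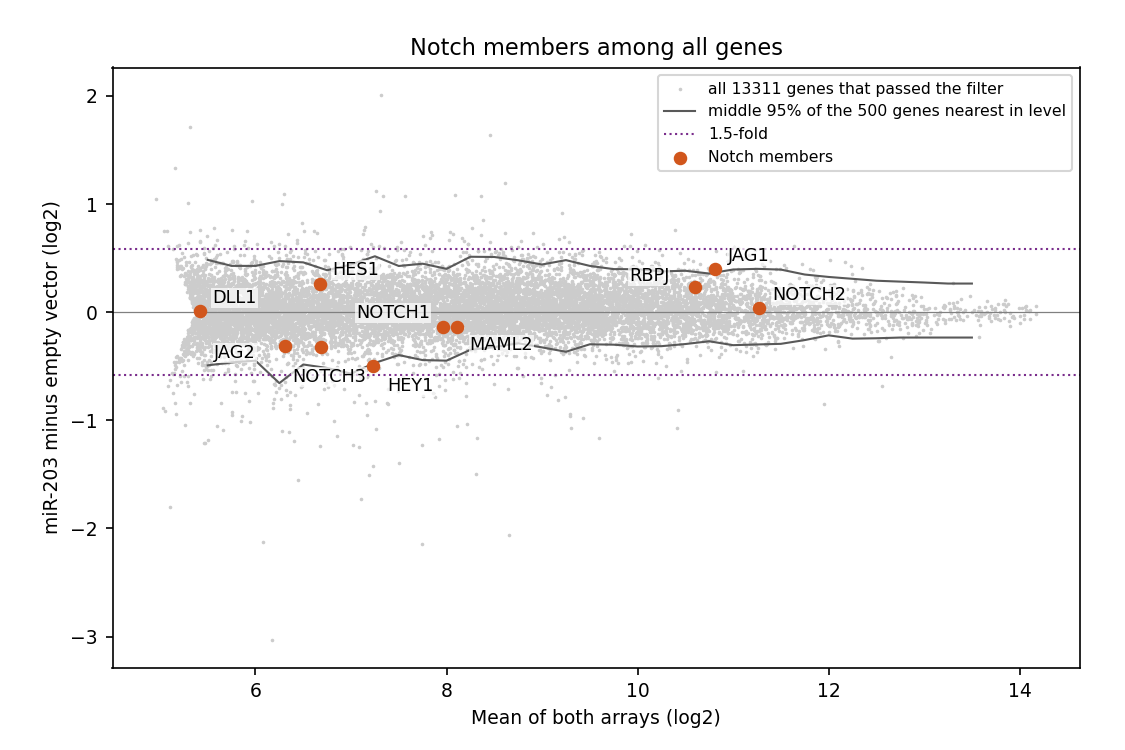
Difference between the arrays (miR-203 minus empty vector, log2) against the mean of both arrays (log2) for the 13311 genes that passed the filter (grey) and the 10 Notch genes (orange). Grey lines bound the middle 95% of the 500 genes nearest in level and dotted lines mark 1.5-fold; JAG1 at 0.39 lies just over the upper line, HEY1 at -0.50 just under the lower one, and the other 8 lie between them.

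Among the ligands, JAG1 and JAG2 lay on opposite sides of 0. JAG1, the Jagged ligand linked to bone metastasis, read 10.62 on the empty-vector array and 11.01 on the miR-203 array. This is a difference of 0.39, or 1.31-fold higher, where genes of like level spanned -0.27 to 0.37. It ranked 484th from the top of 13311 genes, so that 3.64% of genes had a difference at least as high. JAG1 was covered by 6 probe sets, and its direction did not rest on a single one of them. The second read 10.52 and 10.88, a difference of 0.36, just under the upper end of that range. The third read 7.15 and 7.60 (0.44), and the fourth 6.63 and 7.14 (0.51). All 4 probe sets over the filter level were thus higher on the miR-203 array, by 0.36 to 0.51. The remaining 2 were dim, with all values under the filter level, and gave small differences, at 5.26 and 5.29 (0.037) and at 4.94 and 4.89 (-0.056).

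JAG2, the other Jagged ligand, read 6.46 on the empty-vector array and 6.15 on the miR-203 array, a difference of -0.31 or 1.24-fold lower. Its other probe set went the same way, at 6.26 and 6.06 (-0.20). Both lay inside the -0.66 to 0.49 of genes of like level. Set side by side after their values were seen, the JAG1 difference exceeded that of JAG2 by 0.71, so that the ratio of JAG1 to JAG2 signal was 1.63-fold higher on the miR-203 array. No background from other gene pairs is given for this ratio, and it is not comparable with the 1.5-fold counts of single genes. DLL1, a Delta-like ligand, stood at the filter level, at 5.41 and 5.42 (0.010). Its other probe set was far under that level, at 2.33 and 2.57, and its difference of 0.25 is that of a dim probe set.

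The receptors gave differences from -0.32 for NOTCH3 to 0.035 for NOTCH2. NOTCH2 was the most even of the 3, at 11.26 on the empty-vector array and 11.29 on the miR-203 array, a difference of 0.035. Its other 3 probe sets read 10.17 and 10.20 (0.028), 8.53 and 8.55 (0.016), and 6.07 and 6.17 (0.095). Each of the 4 was therefore within 0.10 of 0, over probe sets that span a wide range of brightness. NOTCH2 has near-identical partial copies, the NOTCH2NL genes, so its signal may hold some of theirs. A further probe set annotated to NOTCH2 together with NOTCH2NL genes was left out by the rule, and read 8.85 and 8.68 (-0.17), the opposite sign.

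NOTCH1, the receptor known for its mutations in T-cell leukaemia, read 8.03 and 7.90, a difference of -0.13. Its dimmer probe set read 5.66 and 5.63 (-0.038). Genes of the level of NOTCH1 spanned -0.49 to 0.40, so both values were well inside. NOTCH3, a receptor best known from vascular smooth muscle, was the lowest of the receptors by difference. It read 6.85 on the empty-vector array and 6.53 on the miR-203 array, a difference of -0.32 or 1.25-fold lower, where genes of like level spanned -0.39 to 0.39. Its second probe set read 5.61 and 5.44 (-0.17), lower as well. NOTCH3 ranked 615th from the bottom of 13311 genes, and 4.62% of genes had a difference at least as low.

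**Figure D2:**
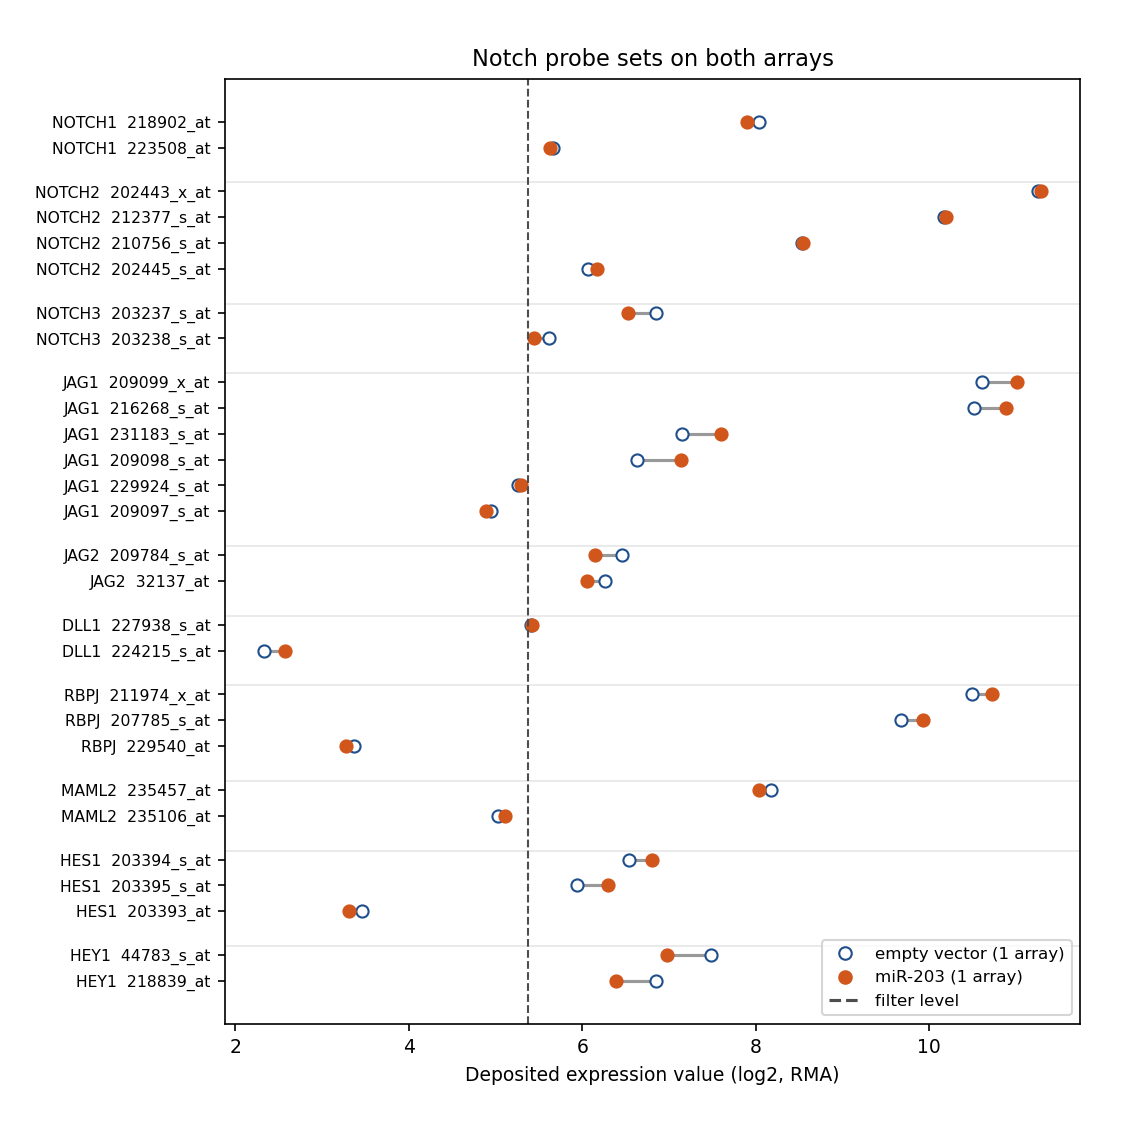
Deposited log2 value of each of the 28 Notch probe sets on the empty-vector array (open circles) and the miR-203 array (filled circles), grouped by gene, with the filter level of 5.37 as a dashed line. The filled circles of JAG1, RBPJ and HES1 lie to the right of the open ones in every probe set over the filter level and those of NOTCH3, JAG2 and HEY1 to the left, while the circles of NOTCH2 nearly coincide.

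In the nucleus, RBPJ and MAML2 also lay on opposite sides of 0. RBPJ, which holds target promoters silent without Notch and activates them with it, read 10.49 and 10.72, a difference of 0.23 or 1.17-fold higher. Its second probe set read 9.68 and 9.93 (0.25), so that the bright probe sets gave almost the same value. Both fell inside the -0.27 to 0.39 of genes of like level. The third RBPJ probe set was dim, at 3.37 and 3.27 (-0.094). MAML2, a Mastermind-like coactivator that bridges the complex to histone acetyltransferases, read 8.18 and 8.04, a difference of -0.14. Its dimmer probe set, under the filter level, read 5.03 and 5.11 (0.075), the opposite sign.

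The target genes HES1 and HEY1 differed in opposite directions. HES1, whose promoter is printed above, read 6.54 on the empty-vector array and 6.80 on the miR-203 array, a difference of 0.26 or 1.20-fold higher. The second HES1 probe set read 5.94 and 6.29 (0.36), and both lay inside the -0.39 to 0.41 of genes of like level. The third, far under the filter level at 3.46 and 3.31, gave -0.16. HEY1, a repressor that pairs with HES proteins, showed the difference furthest from 0 among the 10 genes. It read 7.48 on the empty-vector array and 6.98 on the miR-203 array, a difference of -0.50 or 1.42-fold lower, where genes of like level spanned -0.47 to 0.54. Its other probe set read 6.85 and 6.39 (-0.46), inside that range. HEY1 ranked 201st from the bottom, and 1.51% of all genes had a difference at least as low. Compared after their values were seen, the HES1 difference exceeded that of HEY1 by 0.76, so that the ratio of HES1 to HEY1 signal was 1.70-fold higher on the miR-203 array. This ratio too has no background from other gene pairs beside it.

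The probe sets of a gene gave a check on its direction within the array pair. Of the Notch genes, 8 had at least 2 probe sets over the filter level, and in 8 of 8 all of them lay on the same side of 0. Over all 6286 such genes the share was 52.7%. The SD of the difference over the probe sets of a gene ran from 0.017 to 0.10 for the Notch genes, beside a median of 0.10 over all genes. Probe sets of a gene read the same RNA sample and can overlap, so they show how well a reading repeats on 1 array pair and not between cultures. Whether the share among the Notch genes differs from that of all genes was not tested. Of their 22 probe sets over the filter level, 0 were 1.5-fold higher and 0 were 1.5-fold lower, beside 0.658% and 1.04% of all such probe sets on the array. The 6 probe sets under the filter level, in JAG1, DLL1, RBPJ, MAML2 and HES1, ranged from -0.16 to 0.25.

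The rest of the pathway was described from 73 further genes in 11 lists by role, of which 69 were analysed here and 66 passed the filter. No gene of the lists was 1.5-fold higher (0 of 66) or lower (0 of 66), beside 0.721% and 1.08% of all genes. Counts of 0 are thus near the background. The median difference of the 66 was -0.033, beside 0.013 over all genes. There were 29 above 0 and 37 below, beside 52.1% and 45.8% of all genes. These shares are also the background for the counts above and below 0 by role that follow. By the brightest probe set of each gene, NUMBL, BHLHE41 and SNAI2 lay outside the range of genes of like level, all on the lower side. These 3 of 66 are near the 5% that the range leaves out by construction. BHLHE41 had 1 of 4 probe sets over the filter level, and the other NUMBL probe set had the opposite sign. The fourth receptor, NOTCH4, was at 5.84 and 5.95 (0.11), and the Delta-like ligands DLL3 and DLL4 gave differences of 0.21 and 0.10. The 3 non-canonical ligands, membrane proteins related to the Delta family, were all below 0, with a median of -0.28. DNER was the lowest of them, at 7.12 and 6.81 (-0.31), DLK2 gave -0.28 and DLK1 -0.23. The other DLK1 probe set, under the filter level at 3.03 and 3.26, gave 0.23, the opposite sign. The enzymes that add and extend sugars on the receptor had 1 of 5 above 0, with MFNG furthest from 0 at -0.20.

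The genes that process ligands and receptors were spread around 0. Of the ubiquitin ligases that drive ligand endocytosis, 1 of 4 was above 0, NEURL1B at 7.15 and 7.49 (0.34). The receptor proteases were split evenly, with 4 above 0 and 4 below and a median of -0.0030. The sheddases ADAM10 and ADAM17 gave 0.011 and 0.11, the gamma-secretase subunit nicastrin (NCSTN) gave -0.018, and APH1A, another subunit, was furthest from 0 at -0.21. Among 10 genes of receptor trafficking and turnover, 7 were above 0. FBXW7, which marks the intracellular domain for destruction, was the highest, at 7.64 and 8.02 (0.37), with its 3 probe sets over the filter level from 0.10 to 0.37. NUMBL, a homologue of the Notch inhibitor Numb, was the lowest, at 9.10 and 8.79 (-0.31), outside the -0.30 to 0.47 of genes of like level, while its other probe set gave 0.093.

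Nuclear cofactors and targets showed single genes off 0 on both sides. Coactivators had a median of -0.016 over 7 genes, and the acetyltransferase EP300 was the furthest from 0 at 7.59 and 7.32 (-0.26). The other Mastermind-like genes, MAML1 and MAML3, gave -0.039 and 0.099. Corepressors had a median of -0.046 over 9 genes, with the Groucho-family corepressor TLE3 at 8.11 and 7.69 (-0.42), inside the -0.46 to 0.41 of genes of like level, and all 4 of its probe sets below 0. Of 8 other HES and HEY factors and related basic helix-loop-helix repressors, 4 were above 0 and 4 below. BHLHE41 had the lowest difference of the pathway genes that passed the filter, at 7.09 and 6.57 (-0.53), outside the -0.45 to 0.43 of genes of like level. Its close relative BHLHE40, named after its value was seen, was the highest at 8.99 and 9.41 (0.42). Of 9 other target genes, 7 were below 0, with a median of -0.099. SNAI2 (Slug), a repressor of epithelial genes, was the lowest of these at -0.46, outside the -0.44 to 0.45 of genes of like level, and NRARP, a feedback inhibitor of the Notch complex, gave -0.071.

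**Figure D3:**
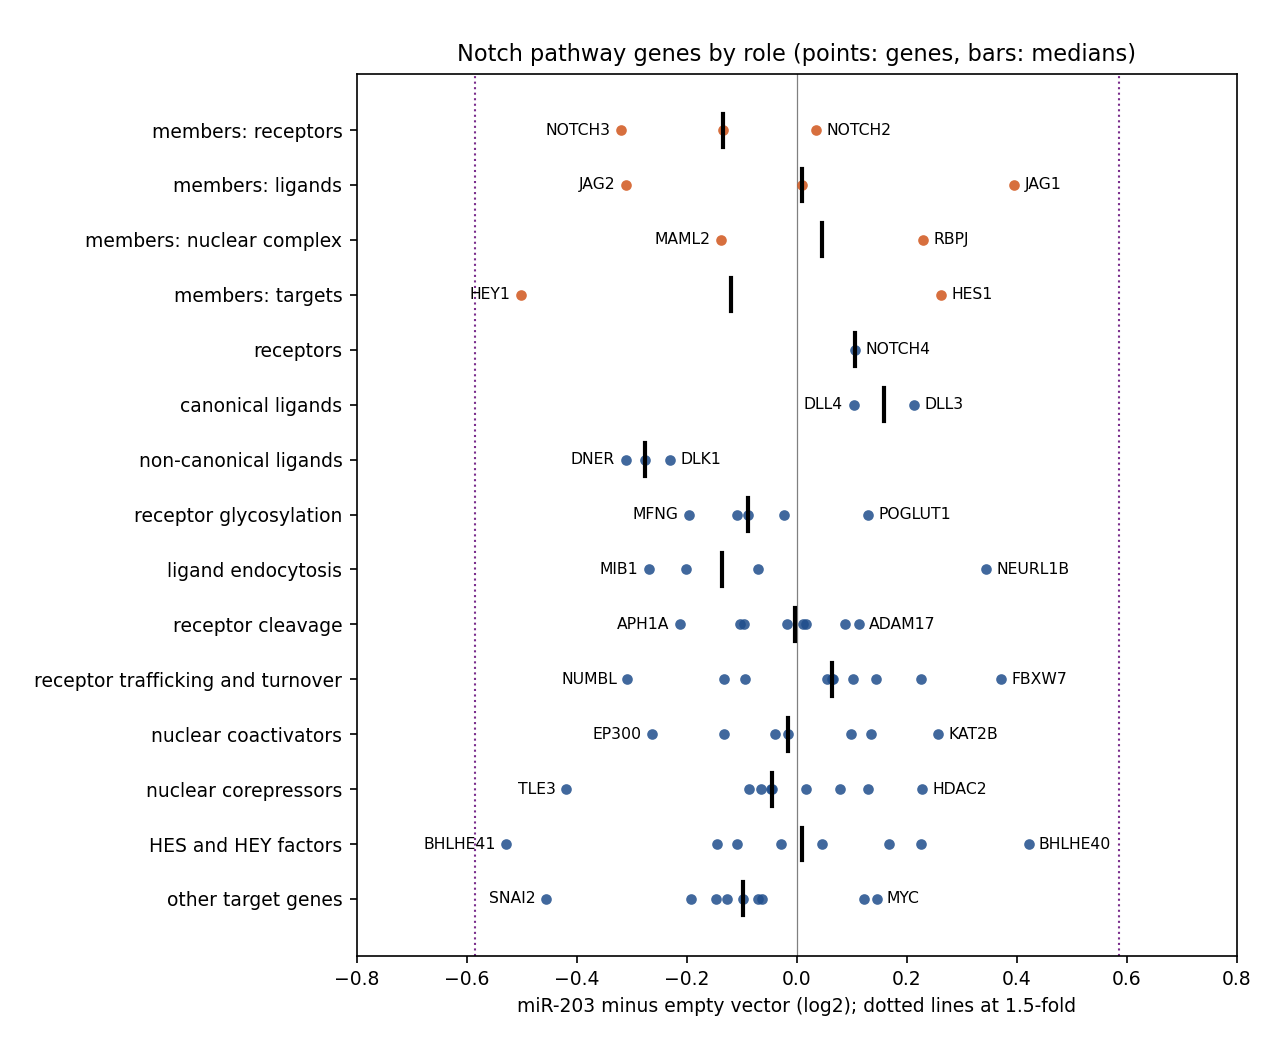
Difference between the arrays (miR-203 minus empty vector, log2) for the 10 Notch genes (orange, labelled as members) and the 66 other pathway genes that passed the filter (blue), by role; each point is a gene, bars are medians, names mark the ends of each row and dotted lines lie at 1.5-fold. All points lie between the dotted lines, from -0.53 for BHLHE41 to 0.42 for BHLHE40.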

How the data were processed

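Per the submitters' processing notes the authors used RMA, which corrects background, gives all arrays the same distribution and yields a value per probe set (version: not given in the sources used here). Deposited values are taken as log2, a scale inferred from their range. RMA would remove a shift of all mRNAs. Per the labels' protocols, cRNA was made from 6 µg of total RNA. Probe sets were named from GEO's platform annotation, checked against RefSeq gene identifiers: 41091 named 1 gene, 1801 several, 11721 were not listed and 62 were controls. Differences, filters and motif searches were computed in Python 3.11.15 with pandas 2.3.3 and statsmodels 0.14.6. The counting of changed genes was tested on simulated data with 1 probe set per gene. The planted changes were larger than that of any of the 10 Notch genes, so this was a check of the code only. The Notch genes and the lists were chosen with earlier results of these data known. Named by rule were the 10 Notch genes, any other pathway gene past 1.5-fold, and the gene furthest from 0 in each role; other names illustrate a list and were chosen with values known. Alternatives were no filter, a stricter filter, the median over probe sets, leaving out probe sets ending in _x_at or _s_at, loess, centring and a 2-fold threshold. The number of arrays limits the precision.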

Additional observations from a re-analysis of the deposited data

How the results depend on the processing

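The counts of Notch genes 1.5-fold higher and lower stayed at 0 and 0 under the alternatives run. Only the median over probe sets, leaving out _x_at and _s_at probe sets, and loess could have changed them. All 10 genes already passed the filter, a stricter filter or a 2-fold threshold cannot raise a count, and centring shifted values by 0. The 5 Notch genes above 0 became 3 of the 6 left with the filter at the 75th percentile (7.35). Without probe sets ending in _x_at and _s_at, which can match several transcripts, it was 0 of the 4 left. That alternative removes 20 of the 28 probe sets, leaves NOTCH2, NOTCH3, JAG1 and DLL1 with no value, and leaves HES1 and RBPJ with a dim probe set each, at -0.16 and -0.094. HEY1 was then at -0.46 and JAG2 at -0.20. Under the median over probe sets no sign changed (0 of 10), MAML2 moved to -0.031 and DLL1 to 0.13. Loess moved no Notch gene by more than 0.023, and centring by 0. For the other pathway genes, alternatives added after seeing the data left the counts at 0 and 0, except that 1 gene, TLE4, was lower without the filter. Here too a stricter filter, a 2-fold threshold or centring could not have raised the counts. Without the _x_at and _s_at probe sets BHLHE41 turned to 0.12, the opposite sign, by a probe set under the filter level, APH1A moved to -0.087 and MFNG to -0.34, the latter also under that level. With the median over probe sets BHLHE41 moved to -0.34, TLE3 to -0.27, DLL3 to 0.069 and FBXW7 to 0.26. No paired analysis was possible because the lines had 1 array each.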

Other observations

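Single probe sets of the wider Notch pathway went past 1.5-fold where the gene's brightest one did not. They were picked out after their values were seen. Of 128 pathway probe sets with at least 1 value over the filter level, 1 was that much higher (0.781%) and 1 that much lower (0.781%), near the 0.658% and 1.04% of all 23997 such probe sets. Each of these had its lower value under the filter level, and the filter favours such differences among dim probe sets. MIB1, a ubiquitin ligase that activates Notch ligands by endocytosis, had 4 probe sets, all lower on the miR-203 array. They read 8.37 and 8.10 (-0.27), 7.73 and 7.33 (-0.40), 6.80 and 6.51 (-0.29) and 5.65 and 4.98 (-0.66) in the empty-vector and miR-203 lines. The dimmest gave the difference furthest from 0. NEURL1, another ubiquitin ligase of this step, read 5.96 and 5.89 (-0.071) by its brighter probe set and 4.90 and 5.53 (0.63) by the other, so its probe sets disagree in sign.

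TLE4, a Groucho-family corepressor like TLE3, did not pass the filter and was also picked out after its values were seen. Its brightest probe set read 5.23 on the empty-vector array and 3.38 on the miR-203 array, a difference of -1.85 between values that both lie under the filter level. Its other 4 probe sets were dimmer on the empty-vector array, and their differences were -0.28, 0.21, 0.10 and 0. Cyclin D1 (CCND1), a target of several pathways including Notch, read 10.48 and 10.29 (-0.19) by its brighter probe set and 10.32 and 9.74 (-0.58) by the other, both lower on the miR-203 array. The second lay outside the -0.32 to 0.40 of genes at a mean level of 10.0. The counts of genes outside such ranges used the brightest probe set only and so leave it out. CCND1 was not the only such case. The dimmer SOX9 probe set read 9.91 and 9.51 (-0.40), outside the -0.30 to 0.40 of genes at a mean level of 9.75. Probe sets of this kind were not counted.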
